A study of Mus musculus with 15 samples.

Results

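Of 18193 genes measured in mouse liver, 9 genes of retinoid metabolism are described here, with 12 of the 45101 probe sets of an Affymetrix mouse whole genome array. They are Rdh7, Rdh10, Rdh11, Dhrs3, Aldh1a1, Aldh1a7, Cyp26a1, Retsat and Rarb, and every probe set that the platform annotation gives to 1 of these symbols alone was taken. Liver RNA came from 15 male mice, each on an array of its own, split evenly into 3 groups of 5. C57BL/6J mice on a chow diet, given distilled water, made up the normal group. KKAy mice, a strain with the lethal yellow allele of agouti that becomes obese and diabetic, made up the KKAy model group, on a high-fat diet and also given distilled water. The treated group (XKA-H) was KKAy mice on the same high-fat diet that received Xiao-Ke-An (XKA), a Chinese medicine made of several herbs, at 1.5 g/kg. Gavage was daily for 32 days from an age of 10 weeks. The KKAy and C57BL/6J mice came from different suppliers, so strain, diet and supplier cannot be told apart in any comparison with C57BL/6J. The sources name both a fed and a fasting state for the day of sampling, and which of them held for these livers is unclear.

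Retinol reaches the liver from the diet, is stored as esters mainly in stellate cells, and is oxidised through retinal to retinoic acid. Retinol dehydrogenases (Rdh7, Rdh10) and retinal reductases (Rdh11, Dhrs3) work in opposite directions on the first, reversible step. Aldh1a enzymes carry out the irreversible step to retinoic acid, Cyp26 enzymes hydroxylate retinoic acid for removal, and retinoic acid acts through nuclear receptors such as Rarb. Retsat stands outside this line and saturates retinol to dihydroretinol.

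Signals are given as the deposited intensity after each array was scaled to a median of 1000, and a difference is on the log2 scale of that signal. A gene with several probe sets was represented by the brightest, and a call means an adjusted p under 0.05 from limma, over all genes or over all probe sets as stated. All 9 genes passed into the test, which had no filter on low signals. The liver label held: the summed signal of 9 hepatocyte markers was 2802000 to 4953000 over the 15 arrays, with none of the 9 called in any comparison. Of the 9, 1 was below the array median in each group. It was Trf, with group means of 180.7 in C57BL/6J, 320.3 in the KKAy model and 113.3 in XKA-H. Whether the probe set taken for Trf reads that gene was not checked, so it adds nothing to the label. Adipocyte markers were low, with 3 of 4 below the array median of 1000 in every group. In bulk liver, fewer cells of a type and less RNA per cell cannot be told apart, which touches all values that follow.

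Cyp26a1 and Rarb are classical direct targets of retinoic acid, and their promoters are shown because each carries a direct repeat of the kind that retinoic acid receptors bind. The 150 bases before the start site are printed 5′ to 3′ on the strand of the gene, from RefSeq on GRCm38.p6, with the repeat in capitals. The Cyp26a1 stretch lies at chr19:37697658-37697807 on the plus strand, and the Rarb stretch at chr14:16575477-16575626 on the minus strand.
Cyp26a1: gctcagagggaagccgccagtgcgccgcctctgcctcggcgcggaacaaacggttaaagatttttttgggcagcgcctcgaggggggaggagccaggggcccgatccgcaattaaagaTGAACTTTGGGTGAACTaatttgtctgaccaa
Rarb: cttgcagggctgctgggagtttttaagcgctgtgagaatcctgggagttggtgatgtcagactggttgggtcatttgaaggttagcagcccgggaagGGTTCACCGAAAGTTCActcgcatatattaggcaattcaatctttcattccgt
The search took 4 half-sites (AGGTCA and its variants with the letters AGTTCA, the letters GGGTCA or the letters GGTTCA), any combination of them as a direct repeat with 5 bases between, on both strands. In Cyp26a1 the repeat is on the opposite strand, reads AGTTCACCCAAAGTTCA there, and spans bases 32 to 16 before the start. In Rarb it is on the strand of the gene, reads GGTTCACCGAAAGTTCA, and spans bases 53 to 37 before the start. Of 32851 promoters of 300 bases, 32 (0.0974%) held such a repeat. A promoter was listed for 8 of the 9 genes, with 13 promoters in all, and these 2 were the only ones among the 13 with a match. With 1 or 2 bases between the half-sites, 73 (0.222%) and 88 (0.268%) of all promoters matched, and none was from these 9 genes. A match describes letters and is no measurement of receptor binding.

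Comparing the KKAy model with C57BL/6J asks how the diabetic livers differ from normal ones. By the probe set that represents the gene, 0 of the 9 genes were called between these groups, against 12.8% of all genes (10.5% higher and 2.36% lower). Of the 9, 3 had an unadjusted p under 0.05 in limma, as did 4569 of the 18193 genes. The median difference of the 9 was -0.03, beside 0.15 over all genes. At the level of probe sets, 2 of the 12 were called, both lower in the KKAy model, against 8.36% of all probe sets (2.36% lower): the second probe sets of Retsat and Rdh11. Comparing XKA-H with the KKAy model asks what the treatment moved. There 0 of 9 genes were called against 0.176% of all genes, and 0 of 12 probe sets against 0.0862%. Aldh1a7 alone of the 9 had an unadjusted p under 0.05 in limma, as did 1561 of the 18193 genes. The median difference of the 9 was -0.15, beside -0.06 over all genes. Between XKA-H and C57BL/6J, 1 gene (Rdh11) was called, lower, against 7.37% of all genes (5.49% higher and 1.88% lower), and 3 probe sets were called, all lower, against 4.72% (1.44% lower). These 3 comparisons share their groups in pairs, so their values are given side by side and not as separate evidence.

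**Figure D1:**
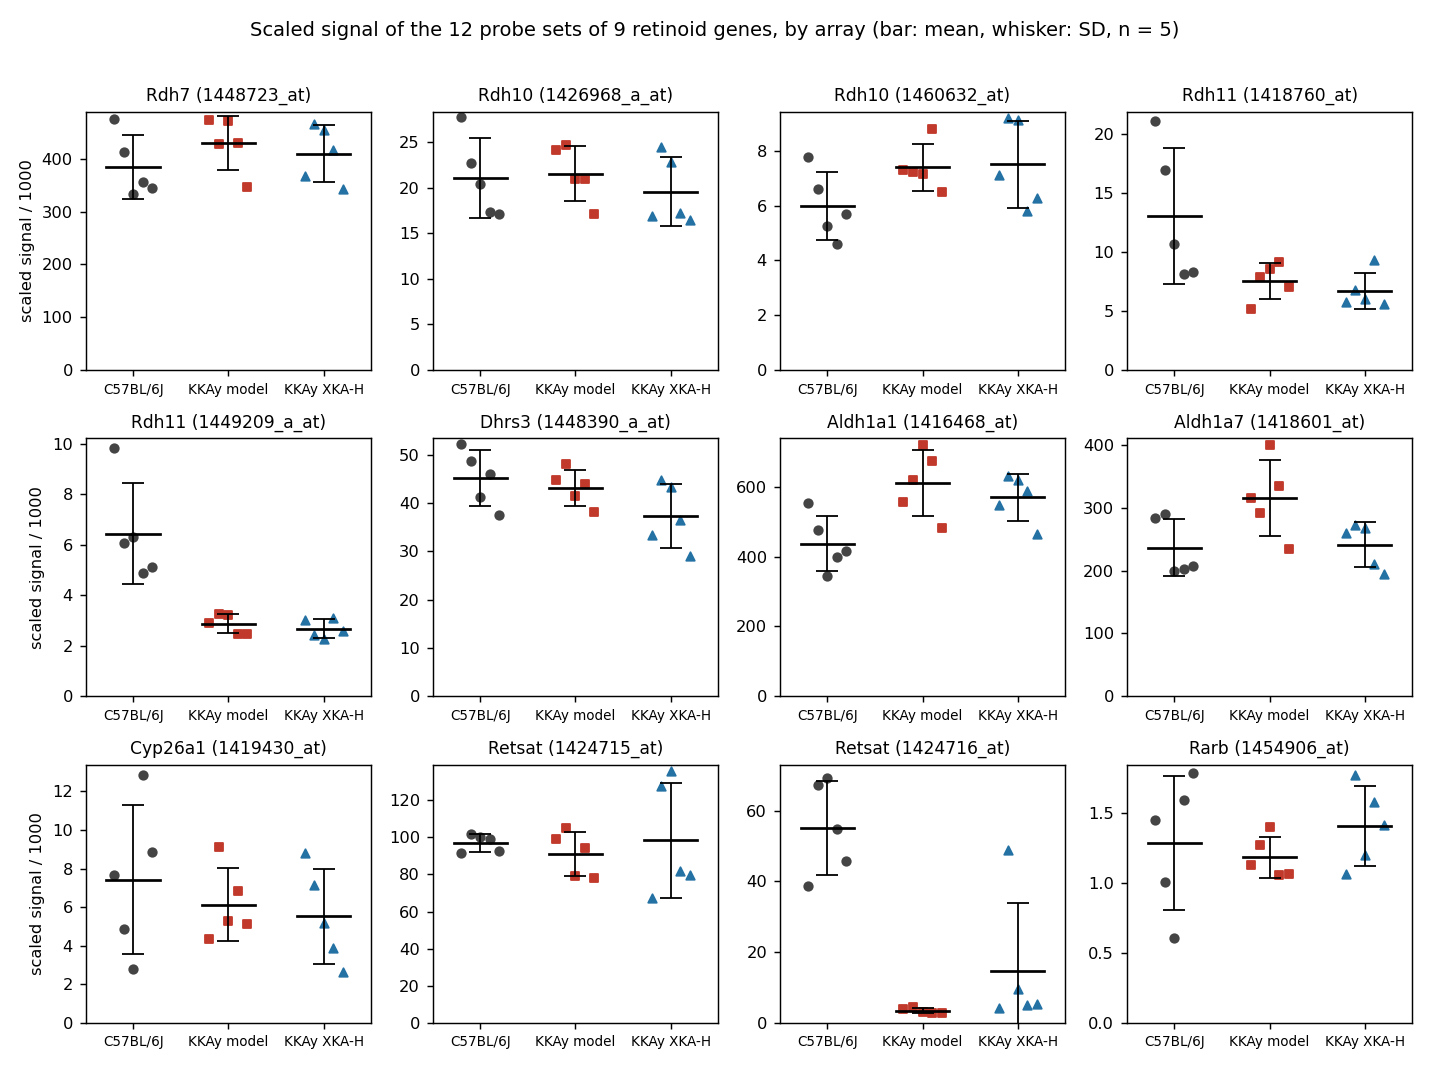
Scaled signal divided by 1000 of the 12 probe sets, 1 panel each, with 1 point per array for C57BL/6J, KKAy model and KKAy XKA-H, a bar at the mean and a whisker of 1 SD (n = 5, cut off at 0). The second probe sets of Rdh11 (1449209_a_at) and Retsat (1424716_at) separate C57BL/6J from the KKAy model, and a single XKA-H array of Retsat sits among the C57BL/6J points.

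Rdh7 encodes a microsomal retinol dehydrogenase abundant in liver. Its signal was 476900, 413000, 333100, 357100 and 344200 in C57BL/6J replicates 1 to 5, 473800, 429200, 472000, 430900 and 346700 in the KKAy model, and 367500, 466900, 455500, 417200 and 342300 in XKA-H. All 3 groups overlapped over nearly their whole range. The KKAy model exceeded C57BL/6J by 0.17 (SE 0.16, limma adjusted p = 0.577), with a 95% interval of 0.891 to 1.41-fold, and XKA-H lay -0.07 from the KKAy model (adjusted p = 0.944, 0.756 to 1.20-fold).

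Rdh10, the retinol dehydrogenase that embryos need for retinoic acid synthesis, had 2 probe sets. The brighter (1426968_a_at) had a signal of 17140 to 27740 in C57BL/6J (median 20440), 17100 to 24640 in the KKAy model (20930) and 16470 to 24470 in XKA-H (17220). The groups overlapped, and the KKAy model differed from C57BL/6J by 0.04 (SE 0.15, limma adjusted p = 0.904). The dimmer (1460632_at) ran from 4581 to 7789 in C57BL/6J, 6484 to 8807 in the KKAy model and 5795 to 9197 in XKA-H. It was 0.32 (SE 0.17) above C57BL/6J in the KKAy model, and did not pass in limma over all probe sets (adjusted p = 0.285). The ratio of the brighter to the dimmer probe set was 3.01 to 3.89 in C57BL/6J, 2.38 to 3.41 in the KKAy model and 2.36 to 2.97 in XKA-H, so the XKA-H range ended just below the C57BL/6J range.

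Rdh11, which reduces retinal back to retinol and acts on other aldehydes, was lower in both KKAy groups by its second probe set. That probe set (1449209_a_at) read 9844, 6055, 6305, 4868 and 5129 in C57BL/6J, 2900, 3247, 3239, 2482 and 2483 in the KKAy model, and 3029, 2427, 2255, 3096 and 2568 in XKA-H. Every C57BL/6J array was above every KKAy array, and the lowest C57BL/6J array was 1.50 times the highest KKAy model array and 1.57 times the highest XKA-H array. The means were 6440 ± 1996 (SD, n = 5) in C57BL/6J, 2870 ± 380.7 in the KKAy model and 2675 ± 371.6 in XKA-H. The KKAy model fell by 1.13 (SE 0.19), 2.19-fold, with a limma adjusted p of 5.21e-04 over all probe sets, and the exact two-sided permutation test gave 0.00794, the smallest p that 5 arrays against 5 allow. XKA-H fell by 1.23 from C57BL/6J (SE 0.19, limma adjusted p = 3.10e-04) and lay -0.10 from the KKAy model (adjusted p = 0.935, 95% interval 0.710 to 1.22-fold).

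The first probe set of Rdh11 (1418760_at) was brighter and more scattered. It read 21070, 16930, 10690, 8080 and 8296 in C57BL/6J, 5148, 7876, 8544, 9125 and 6999 in the KKAy model, and 5786, 6778, 6004, 9273 and 5604 in XKA-H. The 2 lowest C57BL/6J arrays lay inside the range of both KKAy groups. Against C57BL/6J the KKAy model lay -0.71 (SE 0.24) and missed the threshold in limma (adjusted p = 0.0596). XKA-H fell by 0.88 (SE 0.24, adjusted p = 0.0288), which was the only call among the 9 genes. That call was lost without any 1 of C57BL/6J replicates 1 and 2 or XKA-H replicates 1, 2, 3 and 5, with adjusted p between 0.0535 and 0.0837. The ratio of the first to the second probe set was 1.62 to 2.80 in C57BL/6J, 1.78 to 3.68 in the KKAy model and 1.91 to 3.0 in XKA-H, and these ranges overlap. C57BL/6J replicate 1 was the highest of its group in both probe sets.

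Rdh11 is also known as a gene that SREBP factors regulate, and a list of SREBP2 targets, the cholesterol synthesis genes, was therefore set beside it. All 7 measured members of that list fell in the KKAy model against C57BL/6J, where 2.36% of all genes fell. Their median difference was -2.34. Sqle fell by 3.78 (SE 0.33, limma adjusted p = 1.93e-07), Idi1 fell by 3.72 (SE 0.26, adjusted p = 9.68e-09) and Cyp51 fell by 3.03 (SE 0.19, adjusted p = 1.34e-09). In XKA-H, 6 of the 7 fell against C57BL/6J and none was called against the KKAy model, as with Rdh11. The mean log2 signal of the 7 was 14.89 to 15.62 in C57BL/6J, 12.53 to 13.04 in the KKAy model and 12.52 to 13.19 in XKA-H. Among the C57BL/6J arrays, replicate 1 was highest for this mean as for Rdh11, while replicate 2, with the next highest first probe set of Rdh11, had only the fourth highest mean. The part of SREBP2 in the Rdh11 values was not tested.

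Dhrs3 encodes the reductase that pairs with Rdh10 and limits retinoic acid formation. Its signal was 52260, 48660, 41330, 46000 and 37490 in C57BL/6J, 44710, 47980, 41360, 43880 and 38080 in the KKAy model, and 33400, 44670, 43320, 36420 and 29010 in XKA-H. The C57BL/6J and KKAy model arrays overlapped almost fully, and 3 XKA-H arrays lay below every array of the other groups. XKA-H lay -0.28 from C57BL/6J (SE 0.13) and was not called in limma (adjusted p = 0.237), nor against the KKAy model (-0.22, adjusted p = 0.676). With the intensities left as deposited, or quantile normalized, the difference from C57BL/6J passed (-0.44, adjusted p = 0.00603, and -0.42, adjusted p = 0.00218).

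**Figure D2:**
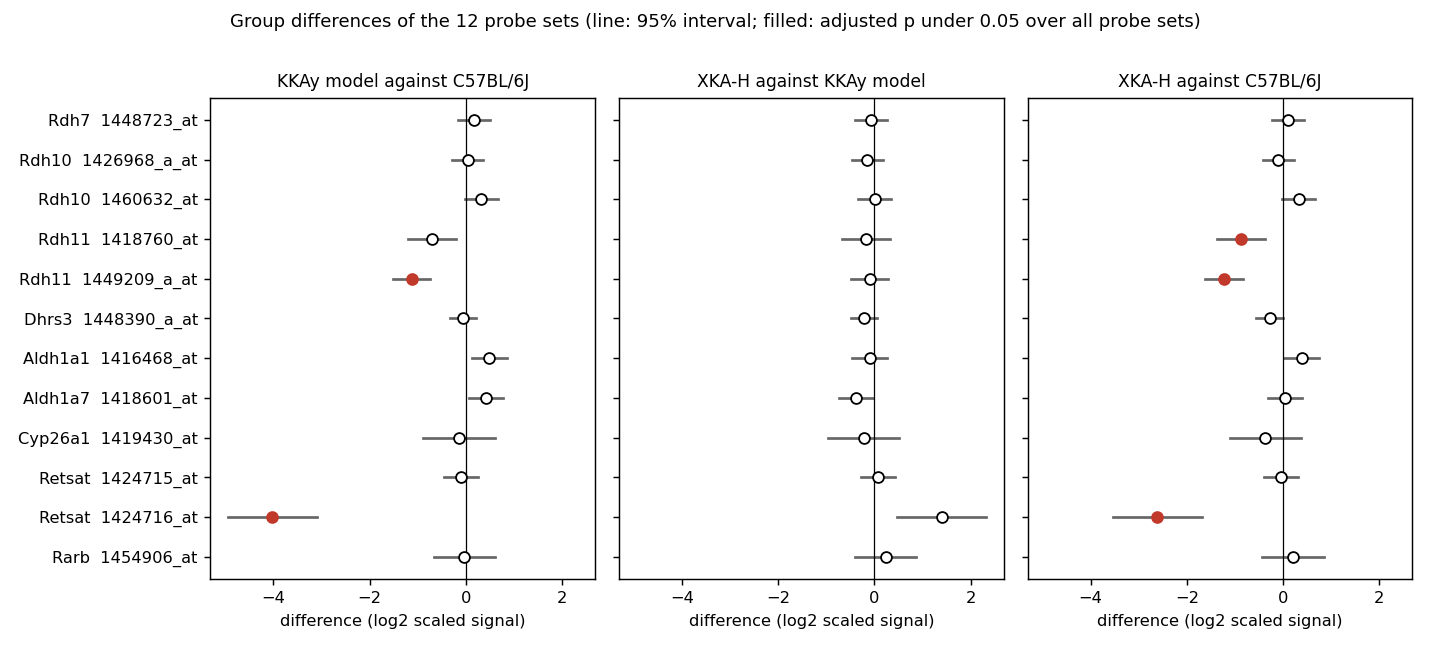
Difference in log2 scaled signal of the 12 probe sets in 3 comparisons, with the 95% interval as a line and filled points where the limma adjusted p over all probe sets is under 0.05. The filled points are Rdh11 1449209_a_at and Retsat 1424716_at in both comparisons with C57BL/6J and Rdh11 1418760_at in XKA-H against C57BL/6J, and no point is filled between XKA-H and the KKAy model.

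Aldh1a1, the main retinal dehydrogenase of adult liver, and Aldh1a7, its close relative, lie near each other on chromosome 19. Their stretches before the start site are shown because the signals of both genes went together between arrays after scaling to the median. After subtraction of each group mean their Pearson r was 0.859 over 15 arrays, but 0.209 after quantile normalization. With the median scaling, Aldh1a1 had an r of 0.868 with Rdh7, which lies on chromosome 10. A link of these stretches to the signals was not tested. The same 150 bases were taken, on GRCm38.p6, at chr19:20601818-20601967 on the plus strand for Aldh1a1 and chr19:20727557-20727706 on the minus strand for Aldh1a7, with the longest run of equal bases in capitals.
Aldh1a1: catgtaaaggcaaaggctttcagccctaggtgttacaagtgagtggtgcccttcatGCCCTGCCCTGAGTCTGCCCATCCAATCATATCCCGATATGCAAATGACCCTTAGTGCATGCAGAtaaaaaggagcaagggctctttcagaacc
Aldh1a7: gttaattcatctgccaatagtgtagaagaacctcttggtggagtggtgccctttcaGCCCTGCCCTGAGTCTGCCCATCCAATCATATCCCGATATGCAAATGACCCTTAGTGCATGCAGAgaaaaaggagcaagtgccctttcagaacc
The equal run was 65 bases long, from 94 to 30 before the start, and 108 of the 150 bases (72.0%) were equal at the same distance from the start. RefSeq also gives Aldh1a1 a second start farther upstream, whose stretch is not printed. Probe sequences were not used here, so whether a probe set of 1 gene also binds the transcript of the other was not tested.

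Aldh1a1 read 551800, 476300, 344400, 397900 and 414900 in C57BL/6J, 554900, 619800, 719800, 674400 and 481100 in the KKAy model, and 547100, 629200, 619900, 586400 and 463400 in XKA-H. In all, 4 of the 5 KKAy model arrays were above all 5 C57BL/6J arrays, and KKAy model replicate 5 lay inside their range. The means were 437000 ± 79570 (SD, n = 5), 610000 ± 94810 and 569200 ± 67350. The KKAy model lay 0.49 above C57BL/6J (SE 0.18), 1.40-fold with a 95% interval of 1.09 to 1.80-fold, and missed the threshold in limma over all genes (adjusted p = 0.0765) with an exact permutation p of 0.0159. With 1 array left out, this difference ran from 0.404 to 0.574. It passed only without C57BL/6J replicate 1 (adjusted p = 0.0378) or without KKAy model replicate 5 (adjusted p = 0.0294). It shrank to 0.29 with intensities as deposited and to 0.23 after quantile normalization, and was called under neither. XKA-H lay -0.09 from the KKAy model (adjusted p = 0.929, 0.728 to 1.21-fold).

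Aldh1a7 read 282800, 289200, 199800, 201700 and 207500 in C57BL/6J, 315700, 291600, 400000, 333900 and 234400 in the KKAy model, and 259700, 272700, 267000, 209900 and 195200 in XKA-H. Of the 5 KKAy model arrays, 4 were above every array of the other groups, again with replicate 5 as the exception. The means were 236200 ± 45620 (SD, n = 5), 315100 ± 60470 and 240900 ± 35690, so the XKA-H mean was near that of C57BL/6J. None of these differences was called in limma with all 15 arrays. The KKAy model lay 0.42 above C57BL/6J (SE 0.17, adjusted p = 0.127). With 1 array left out, this difference ran from 0.323 to 0.516, and passed only without KKAy model replicate 5 (0.52, adjusted p = 0.0404). It shrank to 0.22 with intensities as deposited and to 0.22 after quantile normalization, and was called under neither. XKA-H lay -0.38 from the KKAy model (SE 0.17, adjusted p = 0.550, 95% interval 0.600 to 0.985-fold, exact permutation p = 0.0556).

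Cyp26a1, which hydroxylates retinoic acid, varied most within C57BL/6J among the 9 genes. It read 7658, 4883, 2789, 12880 and 8855 in C57BL/6J, 4370, 9116, 5276, 6817 and 5101 in the KKAy model, and 8810, 7125, 5162, 3893 and 2648 in XKA-H. C57BL/6J replicates 3 and 4 were 4.62-fold apart, and no group stood above another. The coefficient of variation was 52.2% in C57BL/6J, 30.8% in the KKAy model and 44.7% in XKA-H. The 95% interval of the KKAy model against C57BL/6J, 0.543 to 1.52-fold (difference -0.14, SE 0.35, limma adjusted p = 0.859), was the widest in that comparison among the probe sets that represent the 9 genes, and that of XKA-H against the KKAy model was 0.512 to 1.43-fold.

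Rarb, the receptor whose promoter is shown with that of Cyp26a1, was near the array median. It read 1449, 1005, 603.9, 1593 and 1787 in C57BL/6J, 1131, 1270, 1397, 1054 and 1067 in the KKAy model, and 1067, 1771, 1199, 1582 and 1417 in XKA-H. C57BL/6J replicate 3 was lowest and replicates 4 and 5 highest in that group, the same 3 arrays that were lowest and highest in Cyp26a1. The other groups did not show this. XKA-H replicate 1 was highest of its group in Cyp26a1 (8810) and lowest in Rarb (1067). KKAy model replicate 4 was lowest of its group in Rarb (1054), and in Cyp26a1 (6817) only replicate 2 was above it. The groups overlapped (KKAy model against C57BL/6J -0.03, SE 0.31, limma adjusted p = 0.969; XKA-H against the KKAy model 0.23, adjusted p = 0.887). After subtraction of each group mean, Cyp26a1 and Rarb had a Pearson r of 0.548 and a Spearman rho of 0.450 over 15 arrays.

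Retsat, the enzyme that makes dihydroretinol and is strong in liver and fat, differed between its 2 probe sets. The brighter (1424715_at), which represents the gene, read 91410, 101600, 100400, 98970 and 92510 in C57BL/6J, 98920, 105100, 79110, 94380 and 77930 in the KKAy model, and 67090, 127800, 135800, 82040 and 79470 in XKA-H. The groups overlapped, and XKA-H replicates 2 and 3 were the highest of all 15 arrays. The KKAy model lay -0.10 from C57BL/6J (SE 0.17, limma adjusted p = 0.778, 95% interval 0.731 to 1.19-fold), and XKA-H lay 0.07 above the KKAy model (adjusted p = 0.953, 0.819 to 1.34-fold).

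The second probe set of Retsat (1424716_at) read 38790, 67210, 69270, 54820 and 45680 in C57BL/6J, 3904, 4361, 3101, 2810 and 2704 in the KKAy model, and 4175, 48950, 9661, 4975 and 5220 in XKA-H. The lowest C57BL/6J array was 8.89 times the highest KKAy model array, and XKA-H replicate 2 alone lay inside the C57BL/6J range. The means were 55150 ± 13250 (SD, n = 5) in C57BL/6J, 3376 ± 724.1 in the KKAy model and 14600 ± 19320 in XKA-H. The KKAy model fell by 4.02 (SE 0.44), 16.2-fold, with a limma adjusted p of 4.45e-06 over all probe sets and an exact permutation p of 0.00794. XKA-H fell by 2.62 from C57BL/6J (SE 0.44, adjusted p = 9.03e-04). It lay 1.40 above the KKAy model, which was not called in limma (adjusted p = 0.349), with an exact permutation p of 0.0159. Without XKA-H replicate 2 the XKA-H mean was 6008 ± 2476 (n = 4), 0.78 above the KKAy model (SE 0.23, adjusted p = 0.297) and -3.24 from C57BL/6J (adjusted p = 2.07e-08).

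The brighter probe set of Retsat was 1.45 to 2.36 times the second in C57BL/6J and 24.1 to 33.6 times in the KKAy model. In XKA-H the ratio was 2.61 to 16.5, between the ranges of the other groups, with a median of 15.2 and replicate 2 at the low end. The reverse rate, the share of the model change that the treated mean takes back, was 0.217 for the second probe set of Retsat and 0.0508 without XKA-H replicate 2, and -0.05 for the second probe set of Rdh11. Which part of the transcript each probe set reads was not analysed here.

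**Figure D3:**
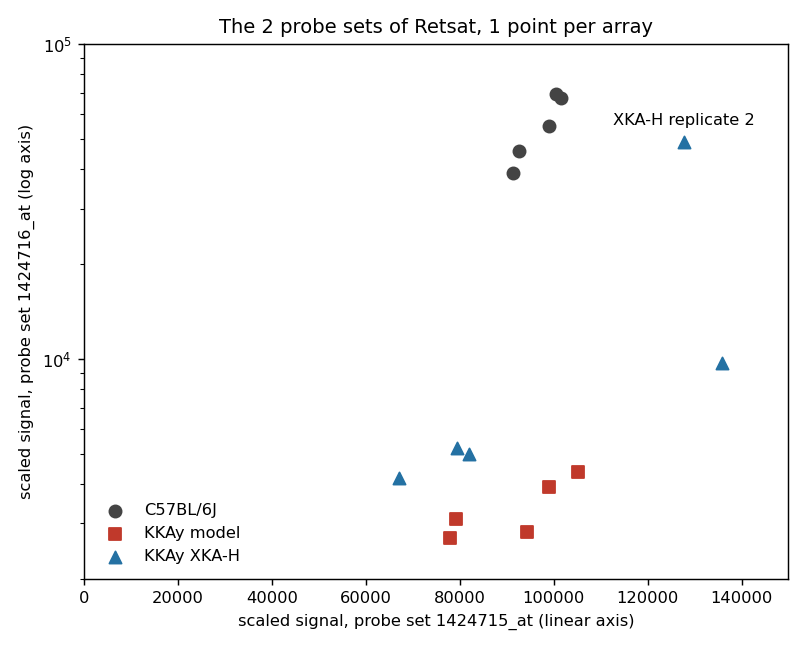
Scaled signal of Retsat in the 15 arrays, probe set 1424715_at on a linear horizontal axis and 1424716_at on a logarithmic vertical axis, with 1 point per array. The groups overlap from left to right. From top to bottom C57BL/6J lies above all KKAy arrays but XKA-H replicate 2 (127800 and 48950), which is at its height, while the KKAy model and XKA-H overlap.

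Since 1 KKAy array carried a C57BL/6J-like signal, the genes beside Retsat in RefSeq order were examined, after the values were seen. The 10 measured genes on each side held 27 probe sets with a mean above the array median. In 6 of the 27, C57BL/6J was apart from the other 9 KKAy arrays, and in 5 of these 6 XKA-H replicate 2 lay beyond those 9 on the side of C57BL/6J. The 5 belong to Usp39, Vamp8, Tgoln1 (2 probe sets) and Tcf7l1, and the exception was Tmem150a, where replicate 2 was at 34050, within the other KKAy arrays (18550 to 36240) and above C57BL/6J (8678 to 15470).

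The next gene, Tgoln1, a protein of the trans-Golgi network, had a probe set (1423308_at) at 6069 to 10210 in C57BL/6J, 1771 to 2681 in the other 9 KKAy arrays and 5911 in XKA-H replicate 2. Tcf7l1, a transcription factor of the Wnt pathway, had a probe set (1450117_at) at 2616 to 3223, 85.09 to 932.1 and 2261 in the same order. In both, XKA-H replicate 2 was just under the C57BL/6J range and far above the other KKAy arrays. The splicing gene Usp39 (1437007_x_at) was at 11570 to 17830, 2034 to 6522 and 15660. The same count for each of the other 9 KKAy arrays in turn was 0 or 1 of 3 or 4 probe sets. In those counts XKA-H replicate 2 was among the arrays compared with C57BL/6J, so its own signals left fewer probe sets apart. The region was also chosen because replicate 2 stood out at Retsat. The counts are therefore a description and no test of that array. Over the whole array, XKA-H replicate 2 was nearer to C57BL/6J in 14 of 168 probe sets (8.33%) that separated C57BL/6J from the other 9 KKAy arrays by at least 2-fold, and the other KKAy arrays were in 0 to 10 (0.00% to 5.99%). What sets this array apart around Retsat was not tested.

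**Figure D4:**
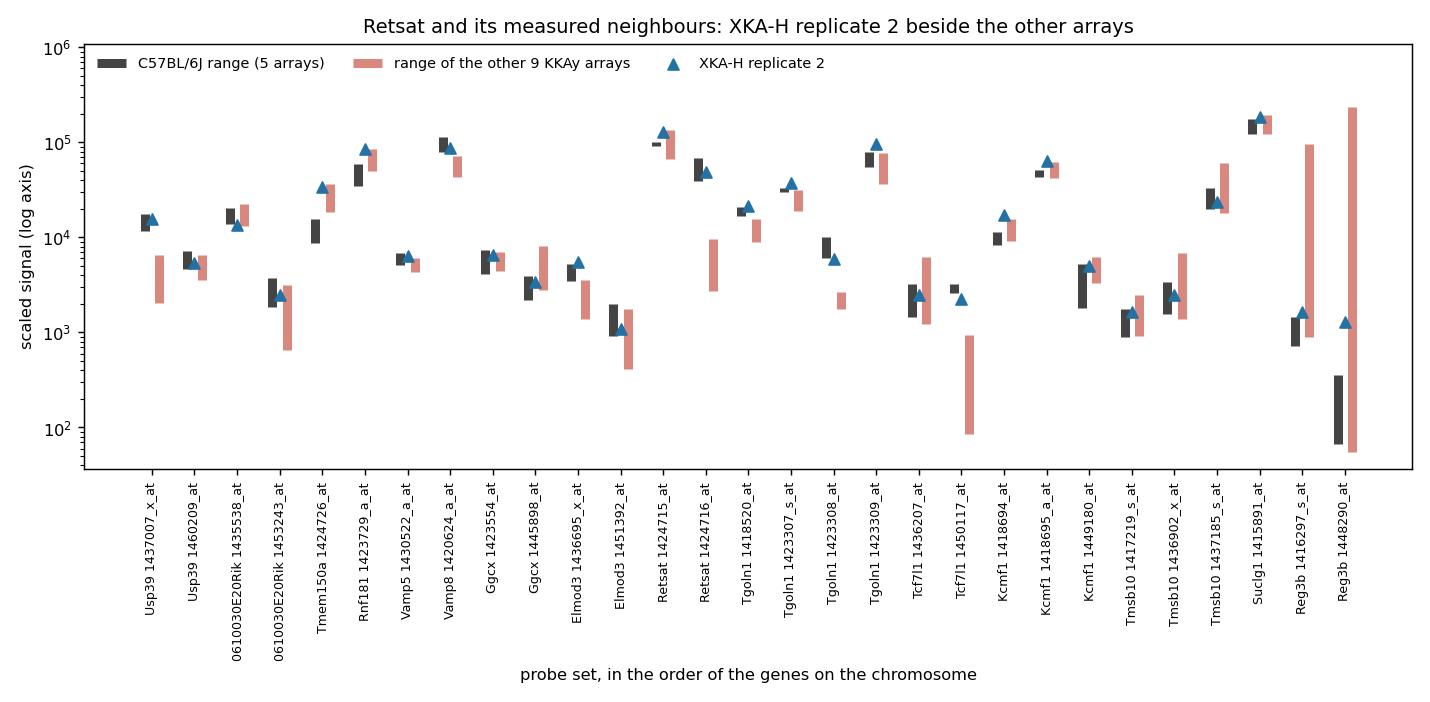
Scaled signal on a logarithmic axis of Retsat (2 probe sets) and of 27 probe sets of the measured genes beside it, in chromosome order, with dark bars for the range of C57BL/6J, light bars for the range of the other 9 KKAy arrays and a triangle for XKA-H replicate 2. Where the bars stand apart, the triangle lies beyond the light bar, in the dark one or near its edge, in Retsat 1424716_at, Usp39 1437007_x_at, Vamp8 1420624_a_at, Tgoln1 1418520_at and 1423308_at, and Tcf7l1 1450117_at, and stays in the light bar in Tmem150a 1424726_at.

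The other genes of the pathway were taken from fixed lists. Of 21 measured genes of retinol and retinal oxidation and reduction, 2 rose and 0 fell in the KKAy model against C57BL/6J, against 10.5% of all genes higher and 2.36% lower, so the share that rose was near the background. The median difference was 0.20, beside 0.15 over all genes. Dhrs4, a reductase of retinal and other carbonyls, rose by 1.07 (SE 0.12, limma adjusted p = 3.30e-06), from 69940 to 148100 in the group means. Akr1b8, an aldo-keto reductase, rose by 1.11 (SE 0.16, adjusted p = 8.85e-05). Both also rose in XKA-H against C57BL/6J, together with Rdh9 (0.65, SE 0.20, adjusted p = 0.0478, and 0.0666 with intensities as deposited), a retinol dehydrogenase of the same family as Rdh7.

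The list of retinoic acid hydroxylation had 4 measured genes outside Cyp26a1. In the KKAy model 2 of them rose and 0 fell, against 10.5% of all genes higher and 2.36% lower. Cyp2c39, a liver cytochrome able to hydroxylate retinoic acid, had group means of 2623 in C57BL/6J, 45430 in the KKAy model and 44380 in XKA-H, a rise of 4.01 (SE 0.27, limma adjusted p = 5.45e-09). Cyp1b1 is better known for oxidising oestrogens and can also oxidise retinol, which is a step towards retinoic acid and not its hydroxylation. It rose by 2.27 (SE 0.49, adjusted p = 0.00408). Its group mean was 551.4 in C57BL/6J, below the array median, and 2005 in the KKAy model. Cyp2c39 and Cyp1b1 also rose in XKA-H against C57BL/6J. Neither was called between XKA-H and the KKAy model (0.04, adjusted p = 0.981, and -0.26, adjusted p = 0.929). The other members of the list, Cyp26b1 and Cyp2s1, were not called in any comparison.

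Carriage, uptake and storage had 20 measured genes. Of these 1 rose and 1 fell in the KKAy model, against 10.5% of all genes higher and 2.36% lower. Scarb1, a lipoprotein receptor that also takes up carotenoids, rose by 0.35 (SE 0.11, limma adjusted p = 0.0317), and Pnpla2, a lipase of triglycerides and retinyl esters, fell by 0.44 (SE 0.15, adjusted p = 0.0496). The call of Scarb1 was lost with intensities as deposited (0.16, adjusted p = 0.273) and after quantile normalization (0.16, adjusted p = 0.347). Between XKA-H and the KKAy model, 0 of 20 rose and 1 fell, against 0.11% of all genes that fell: Lpl, the lipoprotein lipase, with group means of 44260 and 16070, fell by 1.54 (SE 0.29, adjusted p = 0.0298). This was the only gene of the retinoid lists called in that comparison. Lpl was also called lower in XKA-H than in C57BL/6J (group mean 29430, difference -1.01, SE 0.29, limma adjusted p = 0.0385). The KKAy model lay 0.53 above C57BL/6J for Lpl and was not called (adjusted p = 0.278). None of 8 macrophage markers was called between XKA-H and the KKAy model. Of the 8, 7 lay lower in XKA-H, with a median difference of -0.57 beside -0.06 over all genes. Their summed signal was 147100 to 397100 in the KKAy model and 117200 to 235300 in XKA-H. The part of macrophages in the Lpl value was not tested.

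None of 5 measured retinoid receptors (Rara, Rarg, Rxra, Rxrb and Rxrg) was called in any comparison, with a median difference of 0.37 between the KKAy model and C57BL/6J. Of 14 measured retinoic acid targets outside the 9 genes, 2 rose and 1 fell there, against 10.5% of all genes higher and 2.36% lower. Rarres1, a retinoic acid receptor responder, rose by 1.49 (SE 0.20, limma adjusted p = 4.94e-05), and Tgm2, a transglutaminase, by 0.73 (SE 0.24, adjusted p = 0.0473), a call that was lost as deposited (adjusted p = 0.155) and after quantile normalization (adjusted p = 0.122). Hoxb4 fell by 1.93 (SE 0.52, adjusted p = 0.0170), from a group mean of 1075 to 292.6, below the array median. Rarres1 alone of the 14 was called in XKA-H against C57BL/6J (0.79, SE 0.20, adjusted p = 0.0202), a call that was lost as deposited (adjusted p = 0.0666) and after quantile normalization (adjusted p = 0.0534), whereas its call in the KKAy model held under both (adjusted p = 2.94e-04 and 3.06e-04).

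Stellate cells hold most retinyl ester, and of their 14 measured markers 1 (Rgs5) rose and 0 fell in the KKAy model. Their summed signal was 182900 to 287100 in C57BL/6J, 214200 to 343800 in the KKAy model and 198400 to 335700 in XKA-H. In the same comparison 2 of 12 pericentral hepatocyte markers rose and 1 fell, 0 of 5 periportal markers rose and 1 fell, 2 of 6 endothelial markers rose, 1 of 8 macrophage markers fell, and 1 of 4 adipocyte markers rose, against 10.5% of all genes higher and 2.36% lower. The calls of Clec4g, 1 of the 2 endothelial markers, and of Fabp4, the adipocyte marker, were lost with intensities as deposited (limma adjusted p = 0.104 and 0.120) and after quantile normalization (0.0913 and 0.0818). Of 6 measured targets of the xenobiotic receptor CAR, which also regulates Aldh1a1 and Aldh1a7, 0 rose and 1 fell (Ces2a fell by 1.72, SE 0.30, limma adjusted p = 6.14e-04). The part of these cell types in the retinoid values was not tested.

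**Figure D5:**
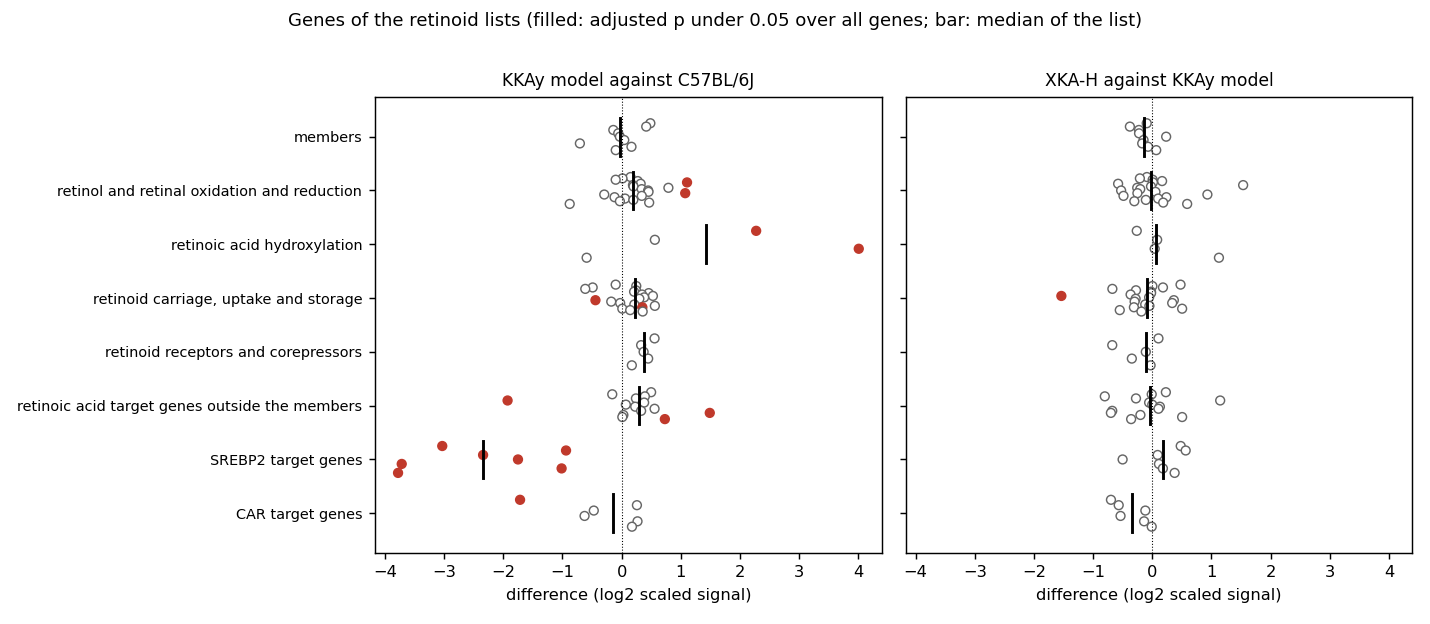
Difference in log2 scaled signal of the measured genes of 8 lists in the KKAy model against C57BL/6J (left) and XKA-H against the KKAy model (right), with filled points at a limma adjusted p under 0.05 over all genes and a bar at the median of the list. On the left all 7 SREBP2 targets are filled and below 0, and on the right Lpl alone is filled.

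Within groups, several of the 9 genes rose and fell together from mouse to mouse. After subtraction of each group mean, the 36 pairs had a Pearson r of -0.11 to 0.868 over 15 arrays (median 0.443). The highest were Aldh1a1 with Rdh7 (r = 0.868), Aldh1a1 with Aldh1a7 (0.859) and Rdh10 with Dhrs3 (0.856). All genes of an array share the scaling factor of that array. The deviations of the 9 genes went against the log2 deposited median of the array, with r from -0.33 in Cyp26a1 to -0.92 in Rdh7. After quantile normalization the 36 pairs ran from -0.53 to 0.740 (median 0.0202), and Aldh1a1 with Aldh1a7 stood at 0.209. The likeness between genes therefore depended on the scaling.

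Among 11623 genes with a mean above the array median, the 2 most like each gene in the deviations within groups had an r of 0.849 to 0.983 over 15 arrays. For Rdh7 they were Ppp6c (r = 0.983) and Micos13 (0.978), for Aldh1a1 Eif3c (0.973) and Fth1 (0.968), and for Aldh1a7 Pla2g12b (0.975) and Snx12 (0.963). Retsat went with Pank1 (0.942) and Aco1 (0.903), Rdh10 with Atg5 (0.944) and Anp32a (0.938), Dhrs3 with Cep44 (0.932) and Ubl5 (0.919), and Rdh11 with Pigf (0.903) and Snx2 (0.894). The lowest values were those of Cyp26a1, with Smg5 (0.900) and Jpx (0.849), and of Rarb, with Pom121 (0.861) and Abca2 (0.860). Each partner was picked for its high r among 11623 candidates over only 15 arrays. How high an r such a search gives by chance was not tested. These r values are on the median scaling, on which the likeness between genes depended, and none is given after quantile normalization. The pairs are therefore a description and no evidence of shared regulation.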

How the data were processed

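Liver RNA of 15 male mice (3 groups of 5) was hybridised by the authors to Affymetrix mouse 430 2.0 arrays, and they deposited 1 column of linear intensity values per array. The probe summary and background correction behind these intensity values are not stated in the sources used here. The methods name a scaling to a median of 1000, and the deposited intensity columns had medians of 127.2 to 182.1, so each array was scaled to that median here and taken to log2. The number of arrays limits the precision. The labels number the arrays within each group, and the methods name 5 mice per group for the arrays.

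Probe sets were named through the platform annotation and Entrez identifiers, with 34958 of 45101 carrying 1 symbol, 932 several and 9211 none. A gene with several probe sets took its values from the one with the largest average log2 signal, which left 18193 genes. In R 4.3.3, limma 3.58.1 was fitted to all 15 arrays together with an intensity trend, once over the genes and once over 44105 probe sets with 1 symbol or none, with two-sided tests, Benjamini-Hochberg adjustment and a threshold of 0.05. Single probe sets were also compared with the exact permutation test over 252 assignments. Intervals are 95% and come from the fit. The fit was tested on simulated data. Promoters came from the RefSeq table on GRCm38.p6, and Python 3.11.15 with matplotlib 3.10.9 drew the figures.

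The 9 genes and all lists were chosen with earlier results of these data known. The text names all 9 genes with every probe set, up to 4 genes of each list with the largest called difference, and the 2 genes most like each of the 9. The neighbours of Retsat, the per-array SREBP2 mean, the alternatives for the second probe sets and the marker Rgs5 fall outside that rule and were chosen after the values were seen. Alternatives covered scaling, probe sets of a gene, dim genes, a pseudocount of 100, the prior variance, array weights, the Dunnett comparisons of the methods, the replicate number as a block and removal of arrays.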

Additional observations from a re-analysis of the deposited data

Results flagged for a closer look

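Of 36 sets of 5 arrays (12 probe sets in 3 groups), 2 held an array farther from the rest than Dixon's 95% critical value of 0.710 allows, and chance gives about 1 such array in 20 sets. In the XKA-H group the second probe set of Retsat (1424716_at) was at 48950 in replicate 2 and at 9661 in the next highest array. In the C57BL/6J group the second probe set of Rdh11 (1449209_a_at) was at 9844 in replicate 1 and at 6305 in the next highest array. Its ratio of 0.711 only just passed the critical value, on the linear scale of the signal, and the log2 scale was not tried. Without C57BL/6J replicate 1 that probe set was still called lower in the KKAy model.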

How the results depend on the processing

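No setting called any of the 9 genes between XKA-H and the KKAy model. Between the KKAy model and C57BL/6J, where the count was 0, it was 1 with intensities as deposited, with quantile normalization and with dim genes left out (Rdh11 each time), 1 with array weights (Aldh1a1), 2 with the mean of the probe sets of a gene (Retsat and Rdh11), 3 with unadjusted Dunnett comparisons, and 0 to 2 with 1 array left out. It was 1 without C57BL/6J replicate 1, 4 or 5, and 2 without KKAy model replicate 5. Between XKA-H and C57BL/6J the count of 1 became 2 with intensities as deposited, quantile normalization or the mean of probe sets. It was 0 without an intensity trend or with array weights, and 0 to 1 with 1 array left out. It was also 0 without both KKAy model replicate 3 and XKA-H replicate 1, a pair picked for its acute phase genes, whose values are not given here. The calls of the second probe sets of Retsat and Rdh11 held in all settings run for them. Over all genes, 1906 rose and 430 fell in the KKAy model after scaling to the median, 1118 and 1017 as deposited, and 1587 and 1092 after quantile normalization. The median difference over all genes was 0.15, -0.05 and 0.04 in the same order. By the unadjusted Dunnett comparisons, 2813 of the 18193 genes rose and 741 fell in the KKAy model. Of the list genes called, none turned sign under the other scalings.

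Differences of genes that were not called turned sign as follows. As deposited and after quantile normalization, the KKAy model lay -0.027 and -0.045 from C57BL/6J for Rdh7 and -0.149 and -0.157 for Rdh10, and XKA-H lay -0.120 and -0.065 from C57BL/6J for Aldh1a7 and -0.062 and -0.021 for Rdh7. After quantile normalization XKA-H lay 0.035 above the KKAy model for Aldh1a1 and 0.025 for Rdh7. Against C57BL/6J, XKA-H lay 0.111 higher for Rdh10 by the mean of probe sets, and 0.040 (array weights) and 0.090 (without the 2 arrays named above) higher for Retsat. With 1 array left out, the KKAy model against C57BL/6J ran from -0.448 to 0.104 for Cyp26a1, -0.278 to 0.113 for Rarb and -0.024 to 0.149 for Rdh10. XKA-H against the KKAy model ran from -0.425 to 0.008 for Cyp26a1 and -0.065 to 0.190 for Retsat. XKA-H against C57BL/6J ran from -0.019 to 0.114 for Aldh1a7, -0.044 to 0.347 for Rarb, -0.190 to 0.001 for Rdh10 and -0.164 to 0.090 for Retsat. The causes were not tested.

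Same-numbered arrays of different groups had a correlation of deviations from -0.12 to 0.18, so no strong shared deviation went with the number. Such values cannot show whether the mice or arrays were paired. With the number as a replicate block the counts of called genes were 0, 0 and 1, and those of probe sets 2, 0 and 2, against 2, 0 and 3. Signals near the array median, as in Rarb, limit what a difference can show.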
